A study of Arabidopsis thaliana with 18 samples.

Results

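The 4 genes DFR (AT5G42800), UF3GT (AT5G54060), AT4G14090 and AT5MAT (AT3G29590) of Arabidopsis thaliana make anthocyanins and attach sugars and acyl groups to them, and were followed across all groups of the series. They were chosen by name from the probe-set annotation, and each has 1 probe set of its own and none shared with another gene, so that all 4 members were measured, of 13513 probe sets that name 1 gene. The study measured transcripts in whole seedlings, 5 days old, of the mutants gun5 and gun1-9 and of the wild type Col-0, each grown with 5 uM norflurazon or untreated. These 6 groups had 3 arrays each, 18 in all, and the series design calls the samples biological replicates. Every group grew at 21 °C in continuous light on a medium with 1% sucrose, so that all carried the sugar, and the treated seedlings met norflurazon in the plate they germinated on. The herbicide norflurazon stops the synthesis of carotenoids, without which light bleaches plastids. The H subunit of magnesium chelatase is encoded by GUN5, GUN1 encodes a plastid protein with pentatricopeptide repeats, and the gun (genomes uncoupled) mutants keep nuclear photosynthesis genes active when plastids are damaged. The labels do not say what either allele changes in its gene.

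Anthocyanins are red to purple pigments stored in the vacuole, and seedlings make them under strong light, cold, nutrient shortage and high sugar. Phenylalanine passes through the phenylpropanoid and early flavonoid steps to dihydroflavonols, which dihydroflavonol 4-reductase, encoded by DFR, commits to anthocyanidins. Glycosyltransferases and acyltransferases then decorate the pigment. UF3GT, also named UGT79B1, adds a xylose to the sugar at position 3, AT4G14090, also named UGT75C1, adds a glucose at position 5, and AT5MAT attaches malonate to that glucose. DFR and the decoration genes are known targets of complexes of MYB, bHLH and WD40 proteins.

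Median intensity per array lay between 14.8 and 16.4, and with 3 arrays a group their number sets the precision. Neither GUN1 nor GUN5 has a probe set of its own in the annotation used, so the mutated genes were not analysed here as a check of the labels. Of 8 genes in a green-leaf list 5 had a probe set of their own in that annotation, which is called measured here and below. Their group means lay between 3931 and 8154 in untreated seedlings. In whole seedlings, fewer cells of a type and less RNA per cell cannot be told apart. Changes are differences of log2(intensity + 1) from a limma fit over all probe sets, with the standard error (SE), and p-values are adjusted by the Benjamini-Hochberg method over 22746 probe sets, with a call under 0.05.

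On norflurazon the 4 genes rose in Col-0, and several of them fell in gun5. In gun5, 3 of the 4 fell and none rose, where 13.2% of all probe sets were called lower. That count was 1 or 2 with any of the 6 gun5 arrays left out and 1 with log2(intensity + 16), and DFR was called lower in each of these fits. In gun1-9, 2 of the 4 rose, where 20.5% of all probe sets were called higher. In Col-0 all 4 rose, where 24.2% of all probe sets were called higher. Treated and untreated arrays did not overlap for 4 of 4 genes in gun5, all lower when treated (18.5% of all probe sets), for 3 of 4 in gun1-9, all higher (25.5%), and for 4 of 4 in Col-0, all higher (29.2%). The median log2 change of the 4 genes was -0.97 in gun5, 1.33 in gun1-9 and 2.74 in Col-0, beside medians over all probe sets of 0.04, 0.02 and 0.03.

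**Figure D1:**
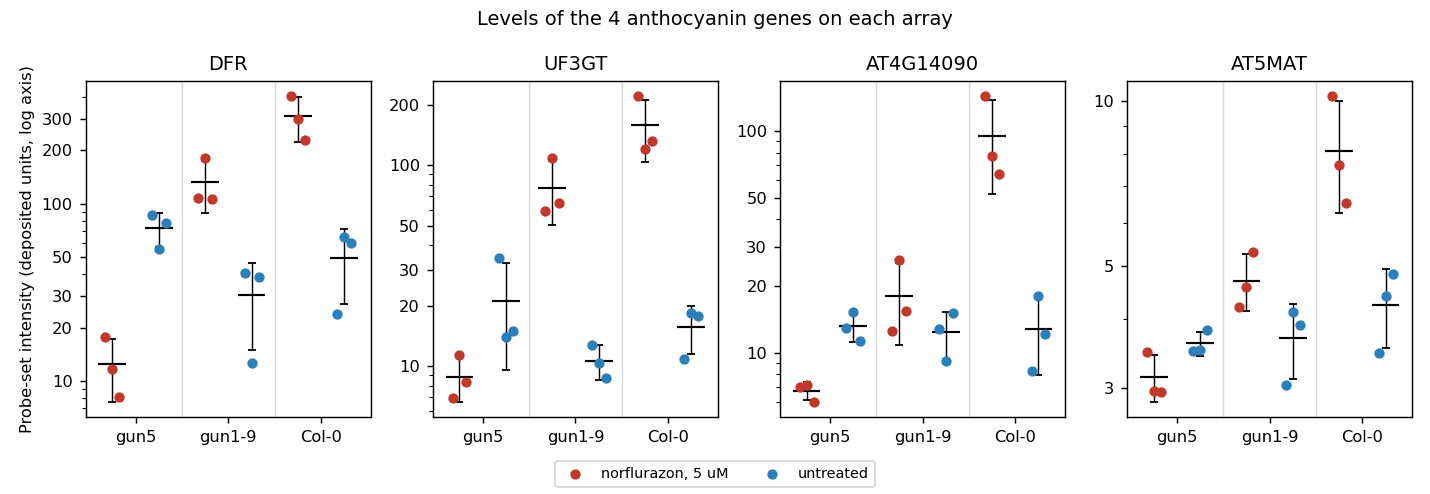
Intensity of each gene on each array (log axis, deposited units), with 3 arrays per group as points, the group mean as a bar and the SD as whiskers; norflurazon is left of untreated in each genotype. Treated Col-0 is the highest group and treated gun5 the lowest for all 4 genes.

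DFR, the reductase at the entry to anthocyanidins, turned opposite ways in gun5 and in the other genotypes. In gun5 its intensity was 17.7, 11.6 and 8.08 on norflurazon, against 86.3, 55.3 and 77.5 untreated. In gun1-9 it was 108, 182 and 106 on norflurazon, against 40.7, 12.6 and 38.5 untreated. In Col-0 it was 403, 299 and 229 on norflurazon, against 23.7, 65.1 and 60.2 untreated. Within each genotype the treated and untreated arrays did not overlap, with the treated ones low in gun5 and high in gun1-9 and Col-0. The log2 change was -2.50 ± 0.43 SE in gun5, a 5.65-fold fall (adjusted p = 0.00025). It was 2.19 ± 0.43 SE in gun1-9, a 4.57-fold rise (adjusted p = 0.00057). In Col-0 it was 2.71 ± 0.43 SE, a 6.54-fold rise (adjusted p = 6.76e-05). Leaving out any of the arrays compared kept these 3 calls.

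The opposite turn of DFR was tested directly, 1 log2 change minus the other. Between gun5 and Col-0 it was -5.21 ± 0.60 SE (adjusted p = 6.41e-06), the most negative of all 22746 probe sets, of which 8.11% were called lower. Between gun5 and gun1-9 it was -4.69 ± 0.60 SE (adjusted p = 9.55e-05), again the most negative, where 2.39% were called lower. These 2 differences share the gun5 arrays. Between gun1-9 and Col-0 the difference was -0.52 with a 95% interval from -1.79 to 0.76 (adjusted p = 0.675), so that a smaller rise of DFR in gun1-9 was not detectable with 3 arrays per group.

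UF3GT, the xylosyltransferase gene, followed DFR in all 3 genotypes. In gun5 it was at 6.94, 11.3 and 8.35 on norflurazon, against 34.4, 14.0 and 14.9 untreated. In gun1-9 it was at 58.9, 108.5 and 64.6 on norflurazon, against 12.8, 10.4 and 8.68 untreated. In Col-0 it was at 220.1, 121 and 132 on norflurazon, against 10.8, 18.4 and 17.7 untreated. Treated and untreated arrays were again separate in every genotype, and replicate 1 of untreated gun5 stood above the other 2. The log2 change was -1.07 ± 0.32 SE in gun5 (adjusted p = 0.019), 2.71 ± 0.32 SE in gun1-9 (adjusted p = 4.19e-06) and, in Col-0, 3.24 ± 0.32 SE (adjusted p = 3.91e-07). The rise in Col-0 was 9.44-fold and ranked 21 from the top among all probe sets. The fall of UF3GT in gun5 depended on few arrays: it was -0.67 without untreated gun5 replicate 1 (adjusted p = 0.121), -0.92 without treated gun5 replicate 1 (adjusted p = 0.0747) and -1.04 without treated gun5 replicate 3 (adjusted p = 0.0534). With log2(intensity + 16) it was -0.54 (adjusted p = 0.12).

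The difference of response of UF3GT was called in the same comparisons as that of DFR. It was -4.31 ± 0.46 SE between gun5 and Col-0 (adjusted p = 2.43e-06) and -3.78 ± 0.46 SE between gun5 and gun1-9 (adjusted p = 4.81e-05). Between gun1-9 and Col-0 it was -0.52 with a 95% interval from -1.49 to 0.44 (adjusted p = 0.545).

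AT4G14090, the 5-O-glucosyltransferase gene, rose in Col-0 and was not called in gun1-9, where DFR and UF3GT rose. In gun5 it was at 7.05, 7.20 and 6.01 on norflurazon, against 12.9, 15.4 and 11.3 untreated. In gun1-9 it was at 12.6, 26.3 and 15.4 on norflurazon, against 12.8, 9.19 and 15.1 untreated. In Col-0 it was at 143, 76.8 and 64.1 on norflurazon, against 8.32, 18.1 and 12.1 untreated. The groups were separate in gun5 and Col-0 and overlapped in gun1-9, where replicate 2 was the high treated array. The log2 change was -0.87 ± 0.30 SE in gun5 (adjusted p = 0.0394), 0.47 ± 0.30 SE in gun1-9 (adjusted p = 0.253) and, in Col-0, 2.76 ± 0.30 SE (adjusted p = 1.15e-06). The call in gun5 was lost whichever of its 6 arrays was left out, with log2 changes from -0.96 to -0.76 and adjusted p from 0.0521 to 0.128, and with log2(intensity + 16), where the change was -0.36 (adjusted p = 0.254).

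AT4G14090 was the member whose response differed from Col-0 in both mutants. The difference was -3.63 ± 0.43 SE in gun5 (adjusted p = 7.69e-06) and -2.29 ± 0.43 SE in gun1-9 (adjusted p = 0.00102), where 7.21% of all probe sets were called lower. Both differences share the Col-0 arrays. Between gun5 and gun1-9 the difference was -1.34 with a 95% interval from -2.24 to -0.44, without a call (adjusted p = 0.0843). It was called with eBayes trend and robust settings (adjusted p = 0.0491) and in a fit on only the arrays compared (adjusted p = 0.0316). Within the same arrays, AT4G14090 was compared with DFR and UF3GT, a comparison chosen after the values were seen. The log2 difference of AT4G14090 from DFR averaged -2.82 on the treated gun1-9 arrays (range -3.00 to -2.71) and -1.75 on those of treated Col-0 (range -1.95 to -1.49). From UF3GT it averaged -2.05 on the treated gun1-9 arrays and -0.77 on the Col-0 ones. The groups did not overlap in either, and the 2-sided exact permutation test gave p = 0.1 for each of the 2 (Benjamini-Hochberg adjusted p = 0.1), the smallest that 3 arrays against 3 allow.

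AT5MAT, the malonyltransferase gene, was dim on these arrays and moved least. In gun5 it was at 3.49, 2.97 and 2.95 on norflurazon, against 3.51, 3.52 and 3.83 untreated. In gun1-9 it was at 4.22, 4.59 and 5.31 on norflurazon, against 3.04, 4.13 and 3.91 untreated. In Col-0 it was at 10.2, 7.63 and 6.53 on norflurazon, against 3.48, 4.42 and 4.84 untreated. The treated and untreated arrays were separate in each genotype, by a narrow margin in both mutants. Arrays were called dim for a gene below 2.26 on the log2 scale, which is the 0.25 quantile averaged over arrays. AT5MAT lay below it on 3 of 3 treated and 2 of 3 untreated gun5 arrays, on 1 untreated array each of gun1-9 and Col-0, and on no treated array of these. The other 3 genes lay above it on all 18 arrays.

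The log2 change of AT5MAT was -0.16 ± 0.14 SE in gun5 (adjusted p = 0.444), 0.29 ± 0.14 SE in gun1-9 (adjusted p = 0.128) and, in Col-0, 0.79 ± 0.14 SE (adjusted p = 0.000219). The added constant of 1 understates changes this close to the floor. The difference of response was -0.95 ± 0.20 SE between gun5 and Col-0 (adjusted p = 0.0024). It was -0.50 with a 95% interval from -0.92 to -0.08 between gun1-9 and Col-0 (adjusted p = 0.106), and it was called at -0.63 without treated Col-0 replicate 3 (adjusted p = 0.0403). Between gun5 and gun1-9 it was -0.45 with a 95% interval from -0.86 to -0.03 (adjusted p = 0.245).

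**Figure D2:**
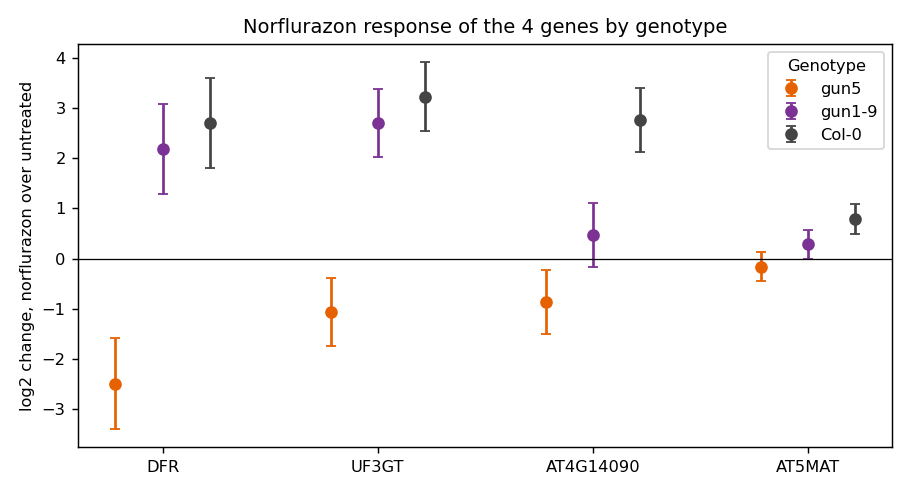
Log2 change on norflurazon over untreated for each gene in gun5, gun1-9 and Col-0, with the 95% confidence interval of the limma fit (3 arrays per group). The gun5 estimates of all 4 genes lie below 0, and for DFR and UF3GT the gun1-9 and Col-0 intervals overlap high above 0.

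Compared by level on norflurazon, the 4 genes stood in the same order of genotypes, with treated gun5 lowest and treated Col-0 highest. All 4 were called lower in treated gun5 than in treated Col-0, where 16.6% of all probe sets were called lower, and the arrays of these groups did not overlap for any of the 4 (23.9% of all probe sets were lower without overlap). DFR averaged 12.4 ± 4.84 in treated gun5 and 311 ± 87.8 in treated Col-0 (SD, n = 3 each), a 23.6-fold difference (log2 difference -4.56 ± 0.43 SE, adjusted p = 2.65e-07). UF3GT was 15.8-fold lower (adjusted p = 4.43e-08) and AT4G14090 11.6-fold (adjusted p = 7.82e-08). AT5MAT averaged 3.14 ± 0.306 in treated gun5, dim on all 3 arrays, and 8.12 ± 1.88 in treated Col-0 (SD, n = 3 each), with a log2 difference of -1.12 that the added constant shrinks (adjusted p = 8.32e-06). These 4 calls held under every alternative tried and with each array left out.

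Treated gun1-9 also lay below treated Col-0 for all 4 genes, by less, and with calls that were less stable for DFR and UF3GT. All 4 were called lower, where 12.3% of all probe sets were called lower, and no arrays overlapped (21.1% of all probe sets). AT4G14090 averaged 18.1 ± 7.25 in treated gun1-9, against 94.7 ± 42.6 on the treated Col-0 arrays (SD, n = 3 each), a 4.94-fold difference (adjusted p = 1.75e-05), and AT5MAT had a log2 difference of -0.66 (adjusted p = 0.00192). DFR was 2.36-fold lower (log2 difference -1.24, adjusted p = 0.0459) and UF3GT 2.03-fold lower (log2 difference -1.02, adjusted p = 0.0302). The call of DFR was lost without treated Col-0 replicate 1 (adjusted p = 0.163) or 2 (adjusted p = 0.0967), without treated gun1-9 replicate 1 (adjusted p = 0.136) or 3 (adjusted p = 0.142), with the replicate number as a block (adjusted p = 0.0611), and with median centring (adjusted p = 0.0584), eBayes trend and robust settings (adjusted p = 0.0868) or no added constant (adjusted p = 0.051). That of UF3GT was lost without treated Col-0 replicate 1 (adjusted p = 0.152) or treated gun1-9 replicate 1 (adjusted p = 0.123) or 3 (adjusted p = 0.105).

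Between the mutants on norflurazon, DFR and UF3GT were far apart and AT4G14090 and AT5MAT nearer. All 4 genes were called lower in treated gun5 than in treated gun1-9, where 6.42% of all probe sets were called lower, and no arrays overlapped (15.5% of all probe sets). DFR averaged 12.4 ± 4.84 in treated gun5 and 132 ± 43.2 in treated gun1-9, and UF3GT averaged 8.88 ± 2.25 in treated gun5 and 77.3 ± 27.2 in treated gun1-9 (SD, n = 3 each). DFR was thus 9.99-fold lower (adjusted p = 3.66e-05) and UF3GT 7.77-fold lower (adjusted p = 6.54e-06). AT4G14090 was 2.36-fold lower (adjusted p = 0.0103), or without treated gun1-9 replicate 2 not called (adjusted p = 0.0649). AT5MAT had a log2 difference of -0.46 (adjusted p = 0.0363), and its call was lost without treated gun1-9 replicate 2 (adjusted p = 0.0784) or 3 (adjusted p = 0.149), without treated gun5 replicate 2 (adjusted p = 0.102) or 3 (adjusted p = 0.107), with the replicate number as a block (adjusted p = 0.0512) and with median centring (adjusted p = 0.0569). With log2(intensity + 16) neither AT4G14090 (adjusted p = 0.107) nor AT5MAT (adjusted p = 0.134) was called.

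Without norflurazon, none of the 4 genes was called between any pair of genotypes. In all, limma called 1.67% of probe sets between gun5 and Col-0, 0.396% between gun1-9 and Col-0 and 0.163% between gun5 and gun1-9. At an unadjusted p under 0.05 the members that passed were DFR and UF3GT between gun5 and gun1-9. The share of all probe sets passing that threshold was not counted, so no result is drawn from it. DFR averaged 73.0 ± 15.9 in untreated gun5, 30.6 ± 15.7 in untreated gun1-9 and 49.6 ± 22.6 in untreated Col-0 (SD, n = 3 each). Untreated gun5 and gun1-9 arrays did not overlap for DFR (log2 difference 1.37, unadjusted p = 0.00525, adjusted p = 0.269) or UF3GT (log2 difference 0.82, unadjusted p = 0.0211, adjusted p = 0.463), as for 6.42% of all probe sets. In the ranked group means, treated gun1-9 came second for every gene, above all untreated groups. It was separate from the next group for DFR and UF3GT and overlapped it for AT4G14090 and AT5MAT. The 3 untreated groups followed, each overlapping its neighbour in that order, and treated gun5 came last. For DFR treated gun5 overlapped untreated gun1-9, and for UF3GT it overlapped untreated gun1-9 and untreated Col-0. For AT4G14090 it was separate from every other group. For AT5MAT it was separate from untreated gun5, the next group. Its highest AT5MAT array, at 3.49, still lay above the lowest of untreated gun1-9 (3.04) and untreated Col-0 (3.48).

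Within a group, the genes shared their extreme arrays in some cases. How often other genes do so was not counted. DFR, UF3GT and AT4G14090 had their highest value on the same array in 3 of 6 groups, untreated Col-0 and the treated groups of gun1-9 and Col-0, and their lowest on the same array in 1 of 6. All 4 genes shared the highest array in 1 of 6 groups, replicate 1 of treated Col-0, and the lowest in 1 of 6, replicate 1 of untreated Col-0. Replicate 1 of treated Col-0 was also the highest of its group for the flavonoid genes CHIL, UGT78D1, UGT78D2, UGT89C1 and HYH and for the root-hair expansins EXPA7 and EXPA18. It was the lowest of its group for UGT78D3 and for ICL, LHCB4.1, LHCB4.2, RCA and FAMA, markers given below. For BAN and the markers PSAE1 and PRK it was neither. In untreated Col-0, EXPA7 was lowest on replicate 2, with 31.7 against 84.9 and 100.3, where DFR, UF3GT and AT4G14090 were highest. EXPA18 and ICL were lowest there too. ICL was highest on untreated Col-0 replicate 1, with 478 against 80.8 and 222, where all 4 genes were lowest. On treated gun1-9 replicate 2 ICL, EXPA7, EXPA18, LHCB4.1 and LHCB4.2 were highest, as DFR, UF3GT and AT4G14090 were. Of the other flavonoid genes, UGT78D1, UGT78D2 and HYH were lowest on that array and BAN highest.

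**Figure D3:**
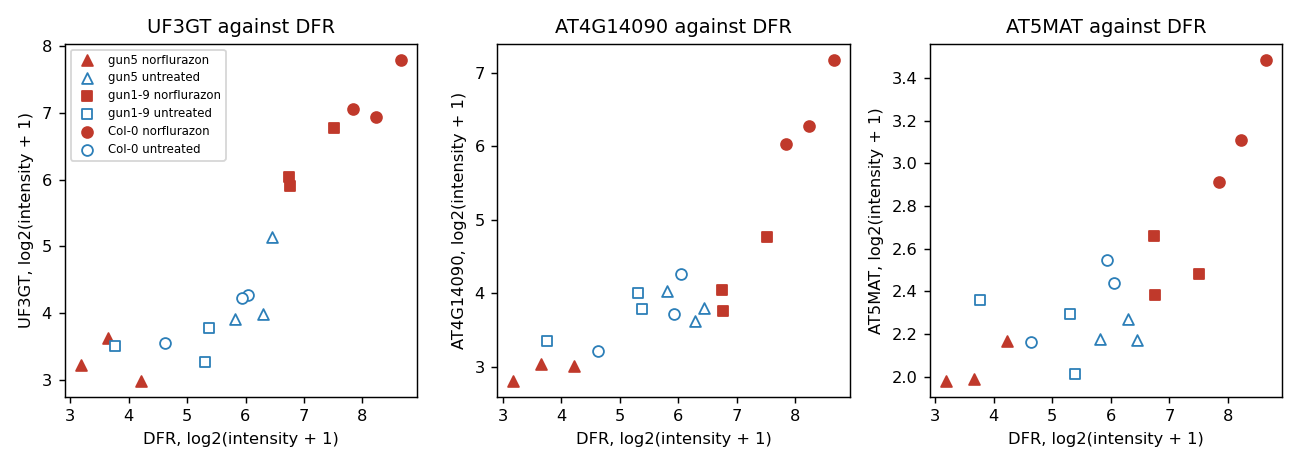
Log2(intensity + 1) of UF3GT, AT4G14090 and AT5MAT against that of DFR, 1 point per array (18 arrays), filled for norflurazon and open for untreated. In the middle panel the treated gun1-9 squares lie near the untreated arrays in height, while treated Col-0 lies above all others.

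The rest of the pathway was taken from lists of phenylpropanoid, flavonoid and regulatory genes. Of these 54 genes 7 had a probe set of their own in the annotation used. These were 1 of 6 early flavonoid genes, 5 of 16 late flavonoid and decoration genes and 1 of 23 regulators. None of the 9 phenylpropanoid genes did. That annotation leaves 8730 probe sets unnamed, so whether the array carries the other listed genes cannot be told here. In gun5, 3 of the 7 rose and 1 fell, and in gun1-9 also 3 rose and 1 fell, while in Col-0 4 rose and none fell. Over all probe sets, 15.7% rose and 13.2% fell in gun5, 20.5% rose and 15.7% fell in gun1-9, and 24.2% rose and 15.1% fell in Col-0. The number that rose was 2 in gun5 with any of its arrays left out, and 2 in Col-0 without treated replicate 1. The number that fell in gun5 was 2 with eBayes trend and robust settings. The median log2 change of the 7 was 0.27 in gun5, 0.05 in gun1-9 and 0.42 in Col-0.

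UGT78D2, which adds the glucose at position 3 of flavonols and anthocyanidins, rose in every genotype. It averaged 456 ± 34.2 in treated gun5 and 328 ± 28.4 in untreated gun5 (SD, n = 3 each, log2 change 0.47, adjusted p = 0.00126). In gun1-9 it averaged 516 ± 34.1 treated and 327 ± 14.9 untreated (log2 change 0.66, adjusted p = 4.16e-05), and in Col-0 623 ± 68.0 treated and 317 ± 10.9 untreated (log2 change 0.97, adjusted p = 4.12e-07). Its rise was smaller in gun5 than in Col-0 (difference -0.49, adjusted p = 0.0185), a call lost with median centring (adjusted p = 0.0659) and without treated Col-0 replicate 1 (adjusted p = 0.0547). The difference between gun1-9 and Col-0 was -0.31 (adjusted p = 0.155).

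CHIL, a chalcone isomerase-like protein that aids the early steps, was called higher in every genotype. It averaged 166 ± 17.0 in treated gun5 and 131 ± 9.79 in untreated gun5 (log2 change 0.34, adjusted p = 0.0449), a call lost whichever of these arrays was left out and in 4 other settings. Its log2 change was 0.40 in gun1-9 (adjusted p = 0.016) and 0.87 in Col-0 (adjusted p = 1.75e-05). The call in gun1-9 was lost without untreated replicate 3 (adjusted p = 0.0813) or treated replicate 1 (adjusted p = 0.0659). The difference of response of CHIL between gun5 and Col-0 was -0.53 (adjusted p = 0.0403), and that call was lost with 7 of 12 arrays, each left out in turn, at adjusted p up to 0.106, with median centring (adjusted p = 0.113) and in a fit on only the arrays compared (adjusted p = 0.0578). Between gun1-9 and Col-0 it was -0.48 (adjusted p = 0.0725), and it was called with quantile normalization (adjusted p = 0.0395), without treated Col-0 replicate 3 (adjusted p = 0.0422) and without untreated gun1-9 replicate 3 (adjusted p = 0.0418).

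UGT78D1, a flavonol 3-O-rhamnosyltransferase gene, fell in both mutants and had no call in Col-0. It averaged 161 ± 66.5 in treated gun5 and 408 ± 32.8 in untreated gun5 (log2 change -1.41, adjusted p = 0.000114). In gun1-9 it averaged 107 ± 27.5 treated and 362 ± 61.1 untreated (log2 change -1.76, adjusted p = 7.61e-06), and in Col-0 331 ± 42.2 treated and 294 ± 30.0 untreated (log2 change 0.17, adjusted p = 0.603). The difference from Col-0 was -1.58 in gun5 (adjusted p = 0.00158) and -1.93 in gun1-9 (adjusted p = 0.000276), so the mutant in which DFR rose and the mutant in which DFR fell both lowered UGT78D1.

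The remaining 4 genes changed by less than 0.8 log2 units in each genotype. UGT89C1, a flavonol 7-O-rhamnosyltransferase gene, had log2 changes of -0.28 in gun5 (adjusted p = 0.0832, or 0.0494 with eBayes trend and robust settings), -0.20 in gun1-9 (adjusted p = 0.197) and 0.42 in Col-0 (adjusted p = 0.00803), with the Col-0 call lost without treated replicate 1 (adjusted p = 0.0569) and in a fit on only the arrays compared (adjusted p = 0.056). Its difference from Col-0 was called in gun5 (-0.70, adjusted p = 0.00611) and in gun1-9 (-0.62, adjusted p = 0.0146). HYH, a bZIP regulator related to HY5, rose by 0.70 in gun5 (adjusted p = 0.00347), 0.73 in gun1-9 (adjusted p = 0.00186) and 0.58 in Col-0 (adjusted p = 0.00934), the last not called without treated Col-0 replicate 1 (adjusted p = 0.0574). UGT78D3, a flavonol 3-O-arabinosyltransferase gene, and BAN, the anthocyanidin reductase of seed-coat proanthocyanidins, were not called in any genotype, with log2 changes of 0.27 and 0.04 in gun5.

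**Figure D4:**
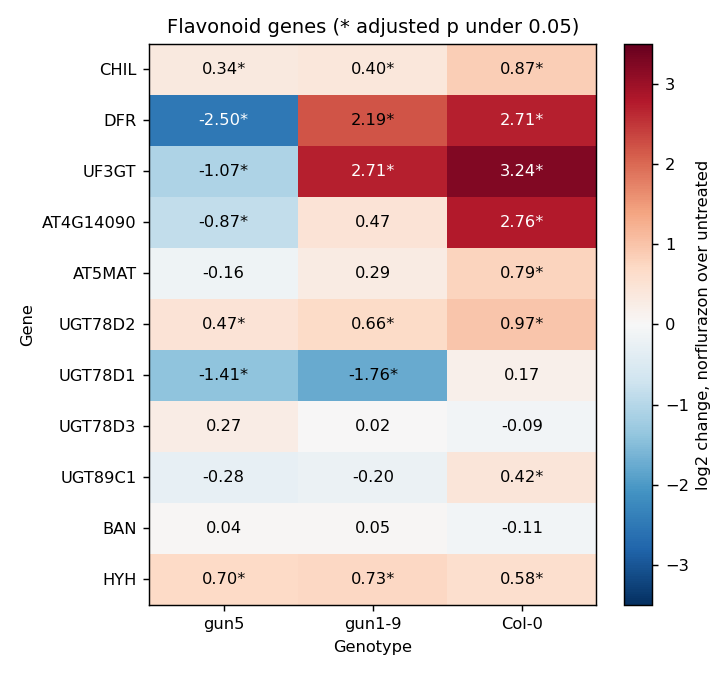
Log2 change on norflurazon over untreated of the 4 genes and 7 other measured flavonoid genes (rows) in gun5, gun1-9 and Col-0 (columns), with a star where the adjusted p was under 0.05. In the gun5 column DFR, UF3GT, AT4G14090 and UGT78D1 are negative with a star, while CHIL, UGT78D2 and HYH are positive with a star.

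Markers of seedling stage and of other tissues moved with some of these results. ICL, the isocitrate lyase of seedlings living on seed oil and the measured member of 13 seed and early-seedling genes, averaged 247 ± 111 in treated gun5 and 7.94 ± 5.90 in untreated gun5, 332 ± 104 in treated gun1-9 and 17.4 ± 11.5 in untreated gun1-9, and 2362 ± 199 in treated Col-0 and 260.4 ± 202 in untreated Col-0 (SD, n = 3 each). It rose in all 3 genotypes, with log2 changes of 4.87 in gun5 (adjusted p = 1.53e-05), 4.45 in gun1-9 (adjusted p = 2.55e-05) and 3.52 in Col-0 (adjusted p = 0.000235). By level on norflurazon, ICL was lower in both mutants than in Col-0, as the 4 genes were, with log2 differences of -3.36 in gun5 (adjusted p = 0.000596) and -2.87 in gun1-9 (adjusted p = 0.00257), and -0.49 between gun5 and gun1-9 (adjusted p = 0.712). ICL also differed from Col-0 without norflurazon, where none of the 4 genes was called, with log2 differences of -4.71 in gun5 (adjusted p = 0.000943) and -3.80 in gun1-9 (adjusted p = 0.0143). The untreated gun1-9 call was lost without untreated Col-0 replicate 3 (adjusted p = 0.0668) and in a fit on only the arrays compared (adjusted p = 0.332).

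Green-leaf genes moved against the anthocyanin genes in Col-0. Of the 5 measured, LHCB4.1, LHCB4.2, PSAE1, PRK and RCA, which serve light harvesting, photosystem I and carbon fixation, 4 fell in gun5, 3 fell in gun1-9 and 5 fell in Col-0, and none rose. Called lower over all probe sets were 13.2% in gun5, 15.7% in gun1-9 and 15.1% in Col-0. Their median log2 change was -0.78 in gun5, -0.60 in gun1-9 and -3.08 in Col-0. Their summed intensity lay between 19299.5 and 20502.9 on treated gun5 arrays and between 28708.5 and 31225.1 on untreated ones. It lay between 21116.5 and 22170.1 on treated gun1-9 arrays and between 29355.7 and 30246.0 on untreated ones, and between 4414.4 and 5213.5 on treated Col-0 arrays and between 29134.1 and 31003.3 on untreated ones. Set against the Col-0 response, that of the mutants was called higher for all 5 in gun5 (median 2.29, where 8.73% of all probe sets were called higher) and for all 5 in gun1-9 (median 2.18, where 8.07% were).

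Of 9 root and root-hair genes 2 were measured, both expansins of root hairs. EXPA7 had log2 changes of 0.65 in gun5 (adjusted p = 0.192), 1.36 in gun1-9 (adjusted p = 0.00519) and 1.02 in Col-0 (adjusted p = 0.0288), and EXPA18 had 0.22 in gun5 (adjusted p = 0.597), 0.94 in gun1-9 (adjusted p = 0.00792) and 0.61 in Col-0 (adjusted p = 0.0708), where it was called without untreated replicate 3 (adjusted p = 0.0325) or treated replicate 3 (adjusted p = 0.0384). The Col-0 call of EXPA7 was lost without untreated replicate 2 (adjusted p = 0.191) or treated replicate 1 (adjusted p = 0.13) and in a fit on only the arrays compared (adjusted p = 0.0846). FAMA, a guard-cell regulator and the measured gene of 6 epidermal markers, had log2 changes of -0.01 in gun5 (adjusted p = 0.966), -0.51 in gun1-9 (adjusted p = 0.00271) and -0.24 in Col-0 (adjusted p = 0.124, or 0.0411 with median centring). The part of seedling stage, of green tissue and of root tissue in the changes of the 4 anthocyanin genes was not tested.

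To find genes with like patterns, the 6 group means of each probe set were centred and compared by their root mean square (RMS) difference in log2 units, over 13509 probe sets that name 1 gene other than the 4. DFR and UF3GT lay 0.474 apart, nearer to each other than any other probe set lay to either. The nearest of the others to DFR were AT5G39850 at 0.945, AT1G62730, AT3G43670, AT1G20120 and, at 0.987, chr31 (AT1G05490). The nearest to UF3GT were AT1G62730 at 0.750, AT5G63010, AT5G39850, AT1G20120 and, at 0.819, AT5G60250. AT1G62730 averaged 23.3 ± 6.38 in treated gun5 and 18.9 ± 3.68 in untreated gun5, 49.7 ± 7.14 in treated gun1-9 and 13.7 ± 3.90 in untreated gun1-9, and 70.8 ± 13.6 in treated Col-0 and 17.5 ± 3.69 in untreated Col-0 (SD, n = 3 each). Unlike DFR and UF3GT, AT1G62730 did not average lower on norflurazon in gun5, and neither did AT1G20120, chr31, AT5G63010 and AT5G60250. AT3G43670 did, with 37.0 ± 7.03 in treated and 58.0 ± 6.52 in untreated gun5 (SD, n = 3 each). It averaged higher when treated in gun1-9 (113 against 79.3) and in Col-0 (144 against 88.2). AT5G39850 averaged 42.3 ± 13.2 in treated and 51.1 ± 12.4 in untreated gun5.

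Seen from DFR and from UF3GT, AT4G14090 lay nearer than any of the 13509 other probe sets. Seen from AT4G14090, some of those probe sets lay closer than DFR and UF3GT did. The nearest was chr31, named as a chromatin remodelling gene, at 0.341, followed by ALPHA-VPE (AT2G25940), a vacuolar processing enzyme, at 0.392, AT4G22960 at 0.399, AT1G20120 at 0.465 and AT3G54520 at 0.473, whereas DFR lay at 0.704 and UF3GT at 0.698. ALPHA-VPE averaged 7.14 ± 0.336 in treated gun5 and 6.71 ± 0.577 in untreated gun5, 8.83 ± 0.420 in treated gun1-9 and 6.64 ± 1.36 in untreated gun1-9, and 39.1 ± 10.3 in treated Col-0 and 7.37 ± 0.544 in untreated Col-0 (SD, n = 3 each). The mean of chr31 was 29.3 in treated Col-0 and between 2.96 and 4.64 in the other groups. Unlike AT4G14090, none of these neighbours averaged lower in treated than in untreated gun5. AT5MAT varied so little that many probe sets lay near it, the nearest being AT4G23885 at 0.0676, AT5G53240 at 0.0780, AT4G29020 at 0.0825, AT3G55605 at 0.0857 and ARA12 at 0.0858. These distances describe 6 group means from the same arrays and carry no test.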

How the data were processed

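Biotin-labelled RNA of each seedling sample went onto an Affymetrix array, per the labels. The authors deposited 1 table of linear intensity values per probe set, with 1 column per array. Medians and quartiles are nearly equal between arrays, so the values were taken as already normalized. GCRMA and MAS5 are named, per the submitters' processing notes, without role or version; GCRMA can hold dim probe sets in a narrow low band. No genome build is given in the sources used here.

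The table has 22810 rows, of which 64 are controls and were not tested. Of the other 22746, the platform annotation names 1 gene for 13513, several for 503, and 8730 are unnamed here, and 13436 of the 13513 were found in the reference gene table (TAIR10.1). No sequences or coordinates are printed.

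On the scale log2(intensity + 1), 1 limma fit (version 3.58.1, R 4.3.3, lmFit and eBayes) took all 18 arrays with a mean for each of 6 groups (prior degrees of freedom 4.48), with 12 contrasts, 2-sided, Benjamini-Hochberg adjusted within each contrast. No covariate was used. The fit was tested on simulated independent normal values for 22746 probe sets. In treated Col-0, 100 of them were changed by 1 log2 unit and 100 by 2. For the Col-0 response 91% and 100% of these were recovered, with 12 false calls. For the difference of response between gun5 and Col-0 71% and 98% were recovered, with 18 false calls. The changed probe sets were drawn at random, each with its own SD within groups. DFR, UF3GT and AT4G14090 varied more within groups than most probe sets, so these shares do not describe them. Figures were drawn with matplotlib 3.10.9.

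The members, the gene lists, the contrasts and the rule for named genes (the 4 members, the listed flavonoid genes with their own probe set, and the 5 nearest patterns of each member; marker lists are given by their measured genes) were chosen with earlier results of these data known. Listed genes cover phenylpropanoid, early and late flavonoid, regulator, seed, root, green-leaf and epidermal genes. The alternatives tried were the replicate number as a block, quantile normalization, median centring, leaving out dim probe sets, fitting only the compared arrays, eBayes trend and robust settings, log2(intensity + 16), each array left out in turn, and, added after seeing the data, no constant.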

Additional observations from a re-analysis of the deposited data

Results flagged for a closer look

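The response to norflurazon differed between genotypes, by the limma test of the difference itself, for all 4 anthocyanin genes. Between gun5 and Col-0 the differences were -5.21 for DFR, -4.31 for UF3GT, -3.63 for AT4G14090 and -0.95 for AT5MAT. Between gun5 and gun1-9 they were -4.69 for DFR and -3.78 for UF3GT. Between gun1-9 and Col-0 it was -2.29 for AT4G14090.

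Among the other flavonoid genes, the differences between gun5 and Col-0 were -0.53 for CHIL, -1.58 for UGT78D1, -0.49 for UGT78D2 and -0.70 for UGT89C1. Between gun1-9 and Col-0 they were -1.93 for UGT78D1 and -0.62 for UGT89C1. Groups of 3 arrays were too small for a check of single outlying samples.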

How the results depend on the processing

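Of the values of the 4 genes that were called, 214 of 224 in other settings and 189 of 210 with 1 array left out kept their direction and their call, and the others kept their direction but not the call. With log2(intensity + 16) the members called lower numbered 1 in the gun5 response, against 3, and 2 between gun5 and gun1-9 on norflurazon, against 4. With arrays left out they ranged from 1 to 2 in the gun5 response, from 2 to 4 between gun1-9 and Col-0 and between gun5 and gun1-9 on norflurazon, and from 1 to 2 where the gun1-9 response was set against that of Col-0. For the difference of response between gun5 and gun1-9 it was 3, against 2, with eBayes trend and robust settings and in a fit on only the arrays compared. The cause was not tested.

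Same-numbered arrays of compared groups had correlations of deviations between -0.113 and 0.190, above 0.1 in 5 of 27 pairs, so the numbers were not taken to pair samples. With the replicate block, DFR between gun1-9 and Col-0 on norflurazon had adjusted p = 0.0611 and AT5MAT between gun5 and gun1-9 on norflurazon had adjusted p = 0.0512; the block changed no other call of the 4 genes. The dim filter and quantile normalization changed none of their calls. Signs turned only for values without a call. With quantile normalization these were AT5MAT between untreated gun5 and gun1-9 (0.0035) and FAMA in gun5 (0.0017). With median centring it was UGT78D3 in gun1-9 (-0.0259). With log2(intensity + 16) it was the difference of response of ICL between gun5 and Col-0 (-0.0081). In the main limma fit that difference was 1.36 (adjusted p = 0.353). With arrays left out, untreated AT4G14090 ranged from -0.27 to 0.25 between gun1-9 and Col-0, from -0.17 to 0.35 between gun5 and Col-0 and from -0.0801 to 0.25 between gun5 and gun1-9, untreated UF3GT from -0.0707 to 0.55 between gun5 and Col-0, and untreated AT5MAT from -0.12 to 0.0521 between gun5 and gun1-9. The response of UGT78D3 ranged from -0.17 to 0.0439 in Col-0 and from -0.0737 to 0.18 in gun1-9, and their difference from -0.0283 to 0.27. In gun5 that of BAN ranged from -0.0268 to 0.0982 and that of FAMA from -0.0867 to 0.0846. The difference of response between gun5 and Col-0 ranged from -0.0603 to 0.29 for HYH and from -0.68 to 0.14 for EXPA7. Of 442 values of other genes that were called, 411 kept the call and none turned, and of 511 that were not called, 7 gained a call, those of CHIL, UGT89C1, FAMA and EXPA18 given above, and 16 turned. The counts of green-leaf genes called moved in gun1-9 alone, to 4 lower against 3, and those of other flavonoid genes with a lower response in gun5 than in Col-0 to 2 with median centring or without treated Col-0 replicate 1, against 4. Signal at or near the dim level limits AT5MAT, and low signal limits AT4G14090 and UF3GT in gun5.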

Other observations

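DFR, UF3GT and AT4G14090 varied widely between arrays of 1 group. The pooled SD within groups was 0.605 log2 units for DFR, 0.455 for UF3GT, 0.423 for AT4G14090 and 0.178 for AT5MAT, beside a median of 0.160 over all probe sets. A larger SD was found in 0.211% of probe sets for DFR, 0.695% for UF3GT, 1.02% for AT4G14090 and 40.9% for AT5MAT. Within untreated gun1-9 the highest DFR value was 3.24 times the lowest, and within untreated Col-0 2.74 times.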
